A study of Mus musculus with 6 samples.

Results

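Tfap2d glutamatergic nuclei are forebrain nuclei that carried transcripts of Tfap2d, which encodes the transcription factor AP-2 delta, together with a vesicular glutamate transporter. A nucleus was taken as one of them when it held at least 2 unique molecular identifiers (UMIs, the counts of single captured RNA molecules) of Tfap2d, at least 1 UMI of the vesicular glutamate transporters Slc17a7 and Slc17a6 combined, and at most 1 UMI of Gad1 and Gad2 combined, the enzymes that make the inhibitory transmitter GABA. Of 75878 nuclei, 75867 had a mitochondrial share of UMIs under 10%, and 335 of these met the rule, which is 0.442% of nuclei (95% exact binomial interval 0.396 to 0.491%). They were chosen on measured UMIs, so the levels of the 5 genes in the rule are given as a description only.

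The study compared the forebrain of 3 wild-type (WT) mice with that of 3 Npc1-/- littermates at postnatal day 16 by single-nucleus RNA sequencing. Npc1 encodes a protein that moves cholesterol out of late endosomes and lysosomes, and Npc1-/- mice lacked it in every cell from conception. Both genotypes were F1 hybrids of BALB/cJ and C57BL6/J parents heterozygous for the Npc1nih allele, and no mouse was treated. Forebrains were flash frozen and homogenised, and nuclei rather than whole cells were captured. The 6 libraries are told apart in the count matrix by a number at the end of each barcode, and the sources used here do not say which number belongs to which mouse. No comparison of WT with Npc1-/- was therefore made, no p-value is given, and the 6 libraries are described by their lowest, median and highest value.

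Tfap2d belongs to the AP-2 family of transcription factors, which bind GC-rich palindromes as dimers and are known for roles in the neural crest, the retina and the midbrain. In the mouse, Tfap2d is best known for its requirement in the inferior colliculus, the auditory midbrain. Slc17a7 and Slc17a6 load glutamate into synaptic vesicles, and Slc17a7 is typical of cortex, hippocampus and the basolateral amygdala, while Slc17a6 is typical of thalamus, hypothalamus and midbrain. The basolateral amygdala and the neighbouring claustrum and endopiriform nucleus hold glutamatergic projection neurons that arise, like those of cortex, from the pallium.

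The 6 libraries held 39 to 72 of these nuclei each, 0.361 to 0.523% of their nuclei with a median of 0.447%. The libraries ranged from 51343653 to 107583300 UMIs in total. Of the 27892 nuclei in the series that met the transporter and Gad terms of the rule, 1.2% met the Tfap2d term too. The Tfap2d nuclei had a median of 9974 UMIs, against 6476 in the 27045 glutamatergic nuclei without a Tfap2d UMI, so the main comparison of genes below is matched on depth. The comparisons by Tfap2d count, within clusters, by transporter and with other sets of nuclei are not. Tfap2d stood at exactly 2 UMIs in 150 nuclei, at 3 in 76, at 4 in 40 and at 5 or more in 69, and the highest count was 33. Just outside the rule lay 512 glutamatergic nuclei with 1 Tfap2d UMI. In all, 631 barcodes occurred in more than 1 library, which concerned 1264 nuclei (1.67%), among them 2 of the Tfap2d nuclei, and no barcode was shared between Tfap2d nuclei of different libraries. No doublet caller was run here.

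The 2 transporters, both used by the rule, divided the nuclei as follows. Slc17a7 without Slc17a6 was seen in 210 nuclei (62.7%), both transporters in 71 (21.2%), and Slc17a6 without Slc17a7 in 54 (16.1%). With at least 3 transporter UMIs the shares of Slc17a7 only and Slc17a6 only were 50.8% and 4.84%. All 7 pan-neuronal genes of the list used were detected, and their summed level was 20228 counts per 1000000 UMIs (CPM) against 19376 CPM in the matched glutamatergic nuclei. The 14 telencephalic excitatory markers summed to 2339 CPM against 2618 CPM.

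To describe which genes went with Tfap2d, the UMIs of 332 of the nuclei were summed and set against the sum of 1660 glutamatergic nuclei with no Tfap2d UMI, drawn from the same libraries at the same depth. Glutamatergic here means meeting the transporter and Gad terms. Of all such nuclei without Tfap2d, 28.2% lay in clusters marked by glial or vascular genes, described further on, against 5.67% of Tfap2d nuclei. The share among the 1660 matched nuclei was not computed. The median depths were 9940 and 9955 UMIs, and 3 Tfap2d nuclei were left out because too few nuclei of their depth remained. Ratios are given on a log2 scale for genes with at least 50 UMIs over both sums, with 95% exact binomial intervals that cover counting error only. Among 13971 such genes, 151 (1.08%) were at least 2-fold higher in Tfap2d nuclei and 556 (3.98%) at least 2-fold lower. Of the 151 and 556 genes, 151 and 465 had an interval off 0. The lower count depended on which nuclei were taken. It was 633 (5.16% of genes counted) with at least 3 Tfap2d UMIs. When clusters marked by glial, vascular, inhibitory or striatal genes, described further on, were left out, it was 271 (2.03% of genes counted) with 296 Tfap2d nuclei. With at least 3 transporter UMIs, 121 Tfap2d nuclei were compared and it was 262 (2.31% of genes counted). The median ratio was -0.05. Of the 2-fold genes, 92 and 314 had the same direction in each of the 6 libraries.

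Abi3bp, Ndst4 and Qrfpr are the genes by which, together with Tfap2d, these nuclei had been named. Abi3bp encodes an extracellular matrix protein and lies on the plus strand at chr16:56477878-56690135 (GRCm38, GENCODE annotation). Over the 6 libraries its level in Tfap2d nuclei was 217 CPM at the lowest, 523 at the median and 799 at the highest, against 18.5, 33.0 and 40.5 CPM in the matched nuclei. The 2 sets of library values did not overlap, and the log2 ratio was 4.05 (3.92 to 4.19). Over all counted genes, every library of Tfap2d nuclei was above every library of matched nuclei in 1.31% and below in 1.28%. Ndst4, on the plus strand at chr3:125404076-125728899, encodes an N-deacetylase and N-sulfotransferase of heparan sulfate. It ran from 170 through 364 to 608 CPM in Tfap2d nuclei and from 40.2 through 71.4 to 74.6 CPM in the matched nuclei, again without overlap, with a log2 ratio of 2.56 (2.45 to 2.67). In cluster 2, described further on, 51 of 55 Tfap2d nuclei had no Ndst4 UMI. When nuclei with 3 or more glial or vascular marker UMIs were left out, 18 Tfap2d nuclei remained, with an Ndst4 log2 ratio of 1.34 (0.92 to 1.75).

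Qrfpr, the receptor of the RFamide peptide 26RFa, on the minus strand at chr3:36179424-36222313, separated the nuclei less. Its library values were 5.93, 17.0 and 29.6 CPM against 7.61, 10.5 and 13.7 CPM, which overlapped. The log2 ratio was 0.76 (0.34 to 1.17), under 2-fold, and Qrfpr was higher in 5 of 6 libraries. A Qrfpr UMI was present in 11.9% of the Tfap2d nuclei. After thinning every nucleus to 4000 UMIs, which left out 12 Tfap2d nuclei, the share was 7.43% (4.82 to 10.9%). The same thinning gave 3.16% in glutamatergic nuclei without Tfap2d and 2.75% (1.58 to 4.43%) in microglia-marker nuclei, which should lack the gene. It left out 7550 of 27045 and 558 of 1139 nuclei of these 2 sets, so their thinned shares rest on the deeper nuclei.

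The share of nuclei with an Abi3bp UMI was further from that in microglia-marker nuclei. An Abi3bp UMI was present in 41.2% of the Tfap2d nuclei, and in 35.9% (30.7 to 41.4%) at 4000 UMIs per nucleus. The thinned share was 9.04% in glutamatergic nuclei without Tfap2d and 6.88% (4.96 to 9.26%) in microglia-marker nuclei, whose unthinned share was 10.1% at a median of 4089 UMIs. No UMI of Abi3bp was found in 197 of the 335 nuclei, which at this depth does not show that the gene was off in them.

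**Figure D1:**
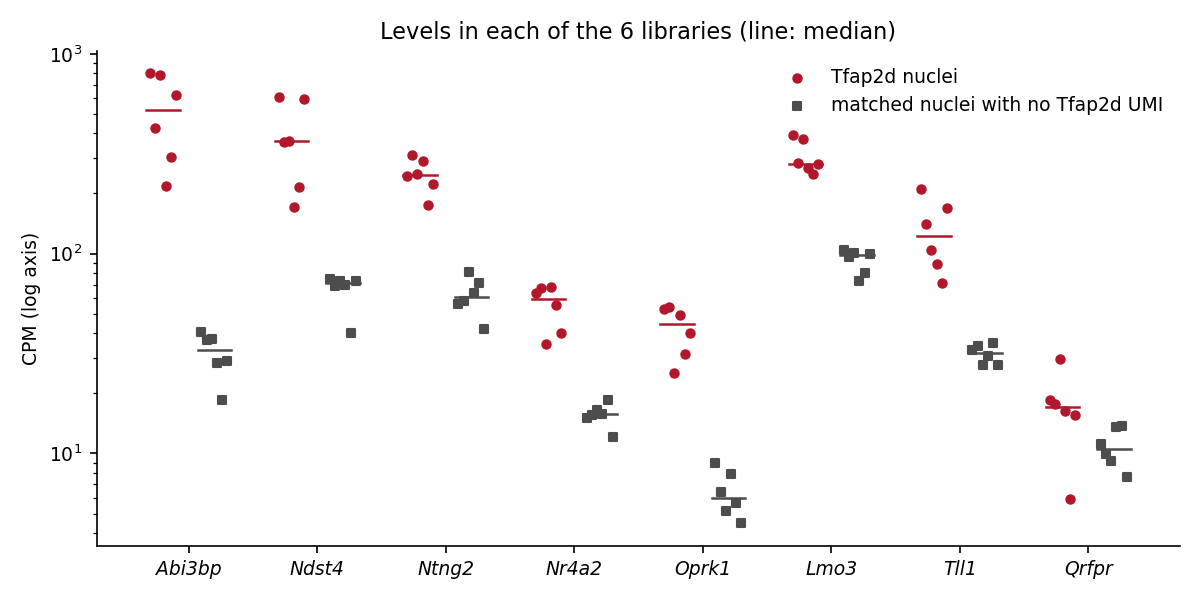
Level (CPM, log scale) of 8 genes in each of the 6 libraries, in Tfap2d glutamatergic nuclei and in matched glutamatergic nuclei with no Tfap2d UMI. Abi3bp in Tfap2d nuclei sits between 217 and 799 CPM, above every library of the matched nuclei, whereas the Qrfpr values of both sets overlap.

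Markers listed for the claustrum, the endopiriform nucleus and the subplate and those for the basolateral amygdala were compared next, as sums over all the nuclei. Both lists were chosen with earlier results of these data known. Of 8 claustrum, endopiriform and subplate genes, 6 could be counted, 5 were at least 2-fold higher and 1 at least 2-fold lower, with a median log2 ratio of 1.59. The 2 with too few UMIs to count, Cplx3 and Nxph4, were at 0.270 against 1.74 CPM and 0 against 0.599 CPM. Each was higher in 0 of 6 libraries. Of 14 basolateral amygdala genes, 13 could be counted, 2 were at least 2-fold higher and 1 at least 2-fold lower, with a median of 0.16. The median over all counted genes was -0.05, with the 1.08% and 3.98% of genes past 2-fold given above. The summed level of each list was higher in Tfap2d nuclei in 6 of 6 libraries, as was that of the pan-neuronal list. The claustrum values came mostly from the 55 nuclei of a cluster described further on (cluster 2), with 620 Ntng2, 117 Oprk1 and 160 Nr4a2 UMIs, while the 157 nuclei of the largest cluster (cluster 1) held 102, 6 and 11. Lists chosen in this way cannot test the label of an amygdala type, so the nuclei are called here by Tfap2d.

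The leading claustrum genes were a receptor, a membrane-bound guidance molecule and a nuclear receptor. Oprk1, the kappa opioid receptor, at chr1:5588466-5606131 on the plus strand, was at 25.4, 44.5 and 54.3 CPM at the lowest, median and highest library, against 4.48, 6.02 and 8.995 CPM in the matched nuclei, with a log2 ratio of 2.72 (2.37 to 3.07). Ntng2, or netrin-G2, at chr2:29194541-29253005 on the minus strand, was at 176, 247 and 312 CPM against 42.1, 60.6 and 80.9 CPM, with a log2 ratio of 2.03. Nr4a2, an orphan nuclear receptor found in deep cortex and claustrum, at chr2:57106830-57124003 on the minus strand, was at 35.3, 59.3 and 67.7 CPM against 12.1, 15.7 and 18.5 CPM, with a log2 ratio of 1.82. None of these 3 genes overlapped between the sets of libraries, as 1.31% of all counted genes did not in this direction. The G protein subunit Gnb4 and the vesicle protein Synpr had log2 ratios of 1.36 and 1.12, and the matricellular gene Ccn2, a subplate marker, had -1.05 from 8 against 82 UMIs. When nuclei with 3 or more glial or vascular marker UMIs were left out, 18 Tfap2d nuclei remained, too few to give a direction for these genes: Oprk1 had 1 UMI there, Nr4a2 2 and Gnb4 6, and their intervals held 0, with log2 ratios of 0.73, -0.59 and 0.31. Synpr, with 19 UMIs, was at -0.038 (-0.83 to 0.68), and Ntng2, with 20, was at 1.68 (0.79 to 2.54).

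The basolateral genes past 2-fold were Lmo3 and Cyp26b1. Lmo3, a LIM-only transcriptional cofactor at chr6:138362918-138581968 on the minus strand, was at 249, 282 and 391 CPM over the libraries, against 72.6, 98.2 and 104 CPM. The 2 sets did not overlap, as for 1.31% of all counted genes in this direction, and the log2 ratio of Lmo3 was 1.75. Cyp26b1, which degrades retinoic acid, had a log2 ratio of 1.42 (0.70 to 2.11) from 28 against 52 UMIs, and was higher in 4 and lower in 2 libraries. The zinc finger gene Zfp536 was at 0.95, just under 2-fold, and the nuclear receptor Rorb, better known from layer 4 of sensory cortex, was at -1.15. Etv1, also on the basolateral list, was at -0.64 and was lower in 6 of 6 libraries.

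Promoter sequences are shown for Tfap2d and for Ntng2 and Nr4a2, 2 of the leading genes above that RefSeq's table holds, to show the DNA on which a factor of this family would be sought. Each is the 250 bases before a RefSeq start site in GRCm38.p6, written 5′ to 3′ on the gene's strand, with matches to the AP-2 palindrome GCCNNNGGC, which is its own reverse complement, in capitals. Tfap2d is shown at chr1:19102772-19103021 (plus), Ntng2 at chr2:29248100-29248349 (minus), where the start lies inside the GENCODE gene, and Nr4a2 at chr2:57124004-57124253 (minus).
Tfap2d: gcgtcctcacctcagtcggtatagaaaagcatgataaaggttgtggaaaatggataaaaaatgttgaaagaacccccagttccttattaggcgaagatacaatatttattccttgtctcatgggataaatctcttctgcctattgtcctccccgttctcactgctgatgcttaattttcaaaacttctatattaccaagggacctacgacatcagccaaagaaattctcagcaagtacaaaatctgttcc
Ntng2: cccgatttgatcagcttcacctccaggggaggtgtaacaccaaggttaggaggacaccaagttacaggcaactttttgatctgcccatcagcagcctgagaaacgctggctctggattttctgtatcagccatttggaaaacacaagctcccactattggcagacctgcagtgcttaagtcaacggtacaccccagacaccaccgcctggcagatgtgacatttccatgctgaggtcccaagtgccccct
Nr4a2: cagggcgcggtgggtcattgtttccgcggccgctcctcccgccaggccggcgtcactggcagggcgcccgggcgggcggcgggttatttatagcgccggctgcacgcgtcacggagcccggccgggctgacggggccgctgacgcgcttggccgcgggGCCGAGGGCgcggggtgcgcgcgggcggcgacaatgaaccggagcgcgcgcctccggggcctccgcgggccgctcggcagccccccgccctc
The Nr4a2 window held 1 match and was 80.0% G and C, while the Tfap2d and Ntng2 windows held 0 and were 39.6% and 52.4% G and C. Over all windows of the same length, 4509 of 32851 (13.7%) held the motif, and 15.4% of genes had it in at least 1 window. Among the 15 highest named genes 12 had a window and 3 of these held the motif, Emid1, Nr4a2 and Rgs12. Among the 15 lowest 11 had a window and 2 held it, Mertk and Flt1. A Qrfpr window held it too. A match is a description of the letters in this window.

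Other genes outside these lists were also among the highest ratios. Tll1, a secreted metalloprotease of the tolloid family, was at 71.1, 122 and 211 CPM over the libraries against 27.7, 31.8 and 35.8 CPM, with a log2 ratio of 2.1 (1.92 to 2.27). Dner, a Notch-related transmembrane protein of neurons, was at 402, 430 and 488 CPM against 126, 142 and 154 CPM, with a log2 ratio of 1.61. Htr2c, a serotonin receptor, was at 264, 490 and 546 CPM against 117, 169 and 198 CPM, with a log2 ratio of 1.48. An Htr2c UMI was present in 59.1% of Tfap2d nuclei thinned to 4000 UMIs, in 24.9% of glutamatergic nuclei without Tfap2d and in 29.4% of microglia-marker nuclei, where Htr2c was at 292 CPM, above the lowest library of Tfap2d nuclei. Epha3, a receptor of ephrins, was at 425, 477 and 619 CPM against 157, 189 and 206 CPM, with a log2 ratio of 1.40. None of these 4 genes overlapped between the sets of libraries, as 1.31% of all counted genes did not in this direction, and the rule that named them asked for the same sign in every library. Emid1 (1.88), L3mbtl4 (1.77), the fibrillar collagen gene Col11a1 (1.75), B3gat2 (1.53), Cntnap3 (1.495) and the regulator of G protein signalling Rgs12 (1.49) were the other genes among the 15 highest named by rule. In the 18 Tfap2d nuclei with under 3 glial or vascular marker UMIs, L3mbtl4, Col11a1 and Cntnap3 were at 0.35, 0.66 and 0.73, with intervals that held 0. Emid1 (1.95), B3gat2 (1.14) and Rgs12 (2.54) remained past 2-fold there, from few UMIs, and the B3gat2 interval held 0.

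**Figure D2:**
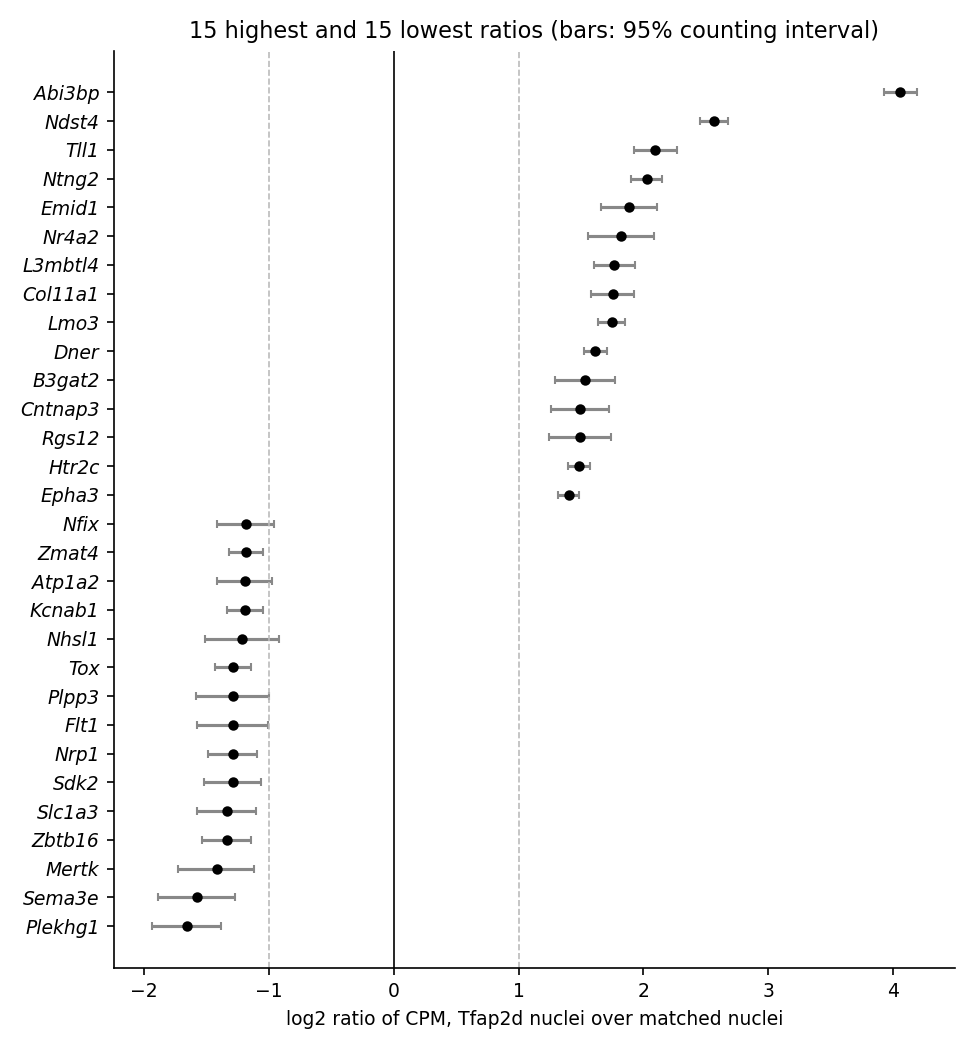
Log2 ratio of the CPM in Tfap2d glutamatergic nuclei to that in depth-matched glutamatergic nuclei without a Tfap2d UMI, for the 15 highest and 15 lowest named genes, with 95% exact binomial intervals. The 15 highest run from Abi3bp at 4.05 to Epha3 at 1.40, and the 15 lowest from Plekhg1 at -1.65 to Nfix at -1.18. Dashed lines mark 2-fold.

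Genes lower in Tfap2d nuclei included glial, vascular and layer-specific neuronal genes. Plekhg1 was at 11.1, 34.1 and 53.7 CPM over the libraries against 68.8, 94.4 and 154 CPM, with a log2 ratio of -1.65. Sema3e, a secreted semaphorin, was at 9.88, 21.6 and 66.6 CPM against 62.4, 79.5 and 90.03 CPM, with a log2 ratio of -1.57. Sema3e overlapped between the sets of libraries and Plekhg1 did not, as 1.28% of all counted genes did not in this direction. The other lowest ratios were those of Mertk (-1.42), Zbtb16 (-1.33), the astrocyte glutamate transporter Slc1a3 (-1.33), Sdk2 (-1.29), the semaphorin receptor Nrp1 (-1.29), the endothelial receptor Flt1 (-1.28), Plpp3 (-1.28) and Tox (-1.28). Flt1 was at 0.25 in the 296 Tfap2d nuclei left without the clusters marked by glial, vascular, inhibitory or striatal genes.

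Markers of other cell types were summed beside these genes. The 7 astrocyte markers summed to 525 CPM in Tfap2d nuclei against 1007 CPM, with library ranges of 353 to 630 and 615 to 1365 CPM, and were lower in each of the 6 libraries. Of the 7 astrocyte markers 2 were at least 2-fold lower, beside 3.98% of all counted genes. The 8 vascular markers summed to 125 against 208 CPM, with library ranges of 66.6 to 227 and 89.7 to 279 CPM, also lower in each of the 6. The 10 oligodendrocyte lineage markers summed to 299 against 383 CPM, with library ranges of 37.7 to 555 and 147 to 585 CPM, and were higher in 2 of 6 libraries. The 8 microglial markers summed to 67.8 against 80.8 CPM, with library ranges of 57.3 to 88.8 and 69.9 to 92.4 CPM, and were higher in 2 of 6 libraries. No gene of these 4 lists was at 0 in the Tfap2d nuclei. Clusters marked by glial or vascular genes held 5.67% of the Tfap2d nuclei against 28.2% of all glutamatergic nuclei without Tfap2d, from which the matched nuclei were drawn. For the matched nuclei alone this share was not computed. The part of these nuclei and markers in the genes that were lower was not tested.

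The cortical layer genes were lower at the median. All 14 could be counted, 0 were at least 2-fold higher and 3 at least 2-fold lower, against 1.08% and 3.98% of all counted genes, and the median log2 ratio was -0.79 against -0.05. The other 11 were within 2-fold. Syt6 (-1.39) and Tle4 (-1.03), both markers of layer 6 neurons that project to the thalamus, and Rorb (-1.15) were past 2-fold. The upper-layer factors Cux1 and Cux2 were at 0.69 and 0.65.

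Genes of heparan sulfate synthesis were listed because of Ndst4. Of 24 enzymes 20 could be counted, and 1, Ndst4, was at least 2-fold higher and none at least 2-fold lower, beside 1.08% and 3.98% of all counted genes, with a median log2 ratio of 0.01. Its paralogue Ndst3 was at 239 against 136 CPM, with a log2 ratio of 0.81, and the sulfotransferase Hs3st1 was at 0.86. The sulfatase Sulf2, which trims sulfate from the chains, was at -0.97. Of the 14 counted core proteins that carry the chains none was at least 2-fold higher, and Sdc4 at -1.04 was at least 2-fold lower. Gpc5, at 352 against 703 CPM, lay just short of that limit.

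Matrix and guidance genes lay past 2-fold in both directions, and these small counts are read beside the 1.08% higher and 3.98% lower of all counted genes. Among 25 counted matrix genes, Abi3bp, Col11a1 and Vcan (1.38), a chondroitin sulfate proteoglycan, were at least 2-fold higher and Hapln1 (-1.20), which links such proteoglycans to hyaluronan, was at least 2-fold lower. Among 38 axon guidance genes, Ntng2 and Epha3 were at least 2-fold higher and 3 were at least 2-fold lower, Ntn1, Nrp1 and Sema3e. The netrin receptor Unc5c and the semaphorin receptor Nrp2, both at 0.99, lay just under 2-fold. The 23 counted cadherins and protocadherins had no gene past 2-fold in either direction.

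A few receptor genes were past 2-fold, beside the same 1.08% and 3.98% of all counted genes. Of 21 neuropeptide and steroid receptors, Oprk1 was the 1 that was at least 2-fold higher and none was at least 2-fold lower, with the somatostatin receptor Sstr2 at 0.91 and the substance P receptor Tacr1 at 0.84. Of 21 monoamine, cholinergic and cannabinoid receptors, Htr2c and Htr1b (1.10) were at least 2-fold higher, and 3, Htr4 (-1.06), Adra1a and Adra1b, at least 2-fold lower. Of 15 neuropeptide genes, Cartpt was at least 2-fold higher, at 7.84 against 2.67 CPM. No gene was past 2-fold among 24 glutamate receptor genes, 12 GABA-A receptor genes, 27 potassium channel genes, 16 calcium and sodium channel genes, 29 sterol genes and 11 immediate early genes.

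Npc1, the gene mutated in the study, was at 25.9 CPM in Tfap2d nuclei and 24.6 CPM in the matched nuclei over all libraries, with a log2 ratio of 0.08 (-0.26 to 0.40). Its library values were 2.34, 27.3 and 39.5 CPM at the lowest, median and highest, against 22.0, 25.1 and 26.5 CPM, and the lowest rested on 1 UMI, in library 4. Without that library the log2 ratio was 0.23, and in the 18 nuclei with under 3 glial or vascular marker UMIs it was -2.08 (-7.45 to 0.56), from 1 UMI. Of the other AP-2 genes, Tfap2b was at 4.32 against 0.926 CPM, from 16 and 17 UMIs, which is under the limit for a counted gene. It was higher in 3 and lower in 3 libraries, and 8 of the 16 UMIs came from 1 nucleus. No UMI of Tfap2a, Tfap2c or Tfap2e was found in the Tfap2d nuclei.

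As a description, since the rule used Tfap2d, levels can be set out by the Tfap2d count of the nucleus. Across glutamatergic nuclei with 0, 1, 2, 3 to 4, and 5 or more Tfap2d UMIs, Abi3bp was at 38.4, 266, 308, 624 and 823 CPM. Ntng2 was at 61.8, 110, 178, 295 and 322 CPM, and Oprk1 at 7.06, 10.1, 26.1, 51.9 and 56.1 CPM. Each of these 3 genes was higher at every step. Ndst4, at 71.2, 272, 302, 540 and 341 CPM, and Lmo3, at 99.3, 225, 248, 400 and 313 CPM, were highest at 3 to 4 Tfap2d UMIs. Rorb ran the other way, at 291, 181, 208, 81.8 and 70.7 CPM. Between nuclei just outside the rule, with 1 Tfap2d UMI, and those just inside it, with 2, the Abi3bp intervals were 252 to 280 and 282 to 336 CPM. Those of Nr4a2 were 18.9 to 27.1 CPM around 22.7 outside and 25.1 to 43.1 CPM around 33.2 inside. At 2 Tfap2d UMIs, the 520 Abi3bp UMIs came from 47 of 150 nuclei. The intervals cover counting error and not this spread between nuclei, so no difference was read from whether they overlap. The median depth of these nuclei was 6476, 8773, 9724, 9713 and 11102 UMIs in the same order, and the part of depth in the levels was not tested.

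**Figure D3:**
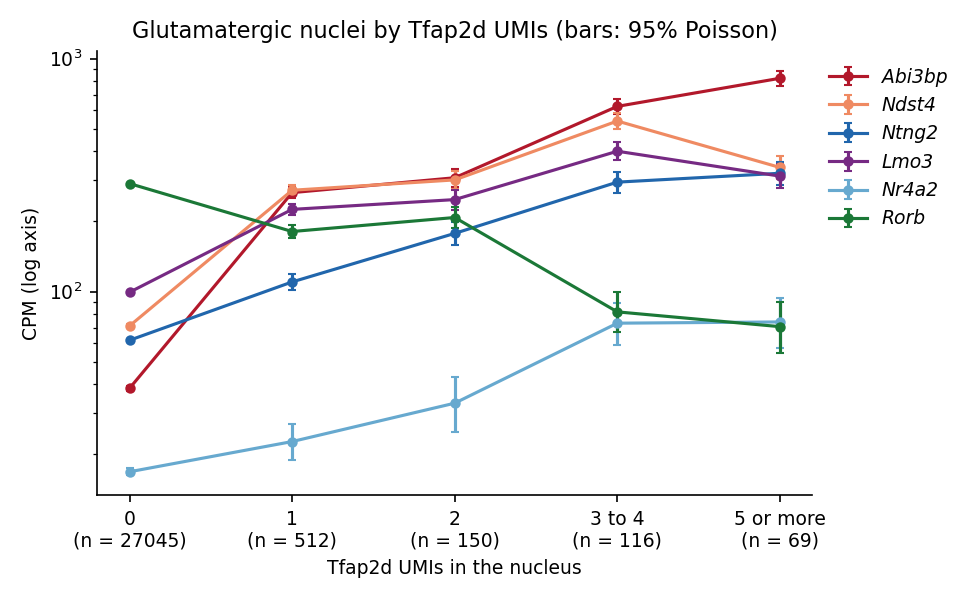
Level (CPM, log scale) of named genes in glutamatergic nuclei grouped by their Tfap2d UMI count, with 95% exact Poisson intervals. Abi3bp runs from 38.4 CPM at 0 Tfap2d UMIs to 823 CPM at 5 or more, while Rorb runs from 291 to 70.7 CPM.

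The nuclei differed among themselves in which of these genes they carried. At least 3 UMIs of Abi3bp were present in 114 nuclei and at least 3 of Ntng2 in 86, and both in 8 (2.39% of the 335). With a limit of 2 UMIs, chosen after seeing the data, both were present in 6.27%. These 8 were 7.02% of the Abi3bp nuclei, whereas Ntng2 at that level was present in 35.3% of the other Tfap2d nuclei. Ndst4 showed the opposite relation to Abi3bp. At least 3 UMIs of both were present in 81 nuclei, which was 71.1% of the Abi3bp nuclei and 72.3% of the Ndst4 nuclei, and Ndst4 at that level was present in 14.03% of the Tfap2d nuclei below 3 Abi3bp UMIs. In 143 nuclei both Abi3bp and Ntng2 were below 3 UMIs.

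**Figure D4:**
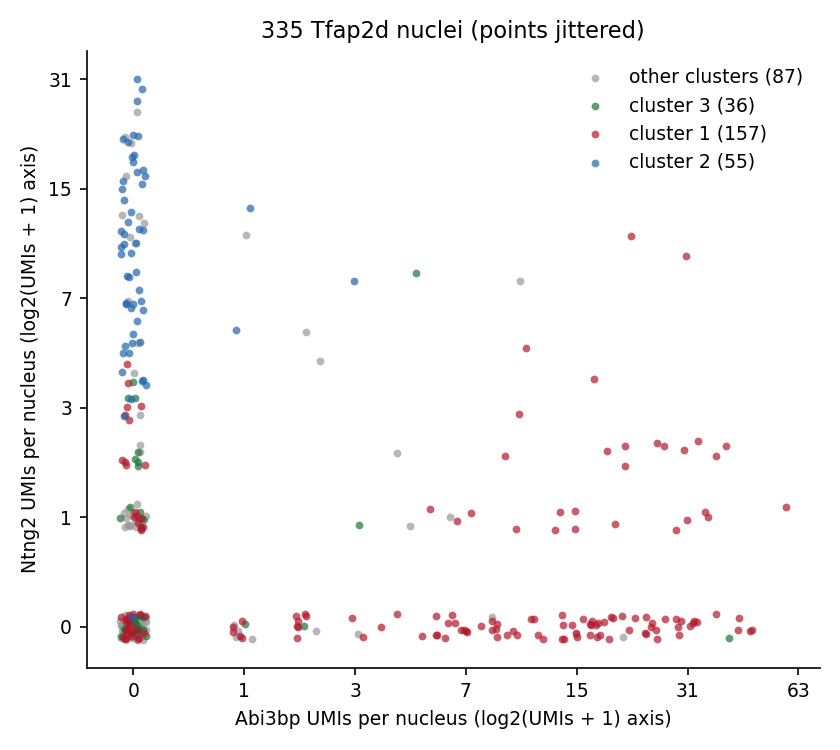
UMIs of Abi3bp and of Ntng2 in each of the 335 Tfap2d glutamatergic nuclei, on log2(UMIs + 1) axes with points jittered and coloured by cluster. In cluster 1, 43 of 157 nuclei have no Abi3bp UMI and 110 no Ntng2 UMI, in cluster 2, 52 of 55 have no Abi3bp UMI and 1 no Ntng2 UMI, and 8 nuclei have at least 3 UMIs of both genes.

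To place the nuclei among all glutamatergic nuclei, the 27892 nuclei that met the transporter and Gad terms were clustered without the 5 genes of the rule. Of the 32 clusters 25 held at least 1 Tfap2d nucleus, and 3 clusters held 248 of the 335 (74.0%). Because the clusters were built on all other genes, the levels of genes between them are a description. Nuclei compared within a cluster were not matched on depth. Cluster 1, of 1874 nuclei, held 157 Tfap2d nuclei (46.9%), cluster 2, of 246 nuclei, held 55 (16.4%), and cluster 3, of 1876 nuclei, held 36 (10.7%). Tfap2d nuclei made up 8.38% of cluster 1, 22.4% of cluster 2 and 1.92% of cluster 3, so that most nuclei of each cluster lay outside the rule.

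Cluster 1 was led by Abi3bp and Ndst4, with Lmo3 also among its 10 leading genes, and 2 of the 14 basolateral amygdala markers were at least 2-fold higher in it than in the other clusters, as were 0.663% of all genes. It was therefore not named after the amygdala. Its Tfap2d nuclei had a median of 9 Abi3bp UMIs, with a range of 0 to 59. Of the 157, 43 had no Abi3bp UMI and 110 had no Ntng2 UMI. Against the 1566 nuclei of the same cluster without a Tfap2d UMI, Abi3bp was at 622, 1074 and 1314 CPM at the lowest, median and highest library, compared with 124, 153 and 254 CPM, a log2 ratio of 2.75 (2.67 to 2.84). Ndst4 (1.17), Lmo3 (0.97), Tll1 (2.02) and Htr2c (1.11) were likewise higher in the Tfap2d nuclei in 6 of 6 libraries. L3mbtl4 was at 240 against 59.1 CPM, a log2 ratio of 2.02 (1.85 to 2.19). Ntng2, at 58.4 against 82.8 CPM, was lower, with a log2 ratio of -0.50 (-0.81 to -0.21), and Oprk1, at 3.44 against 3.39 CPM, could not be told apart at this depth, with an interval of -1.49 to 1.23.

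Cluster 2 is described by the list of claustrum, endopiriform and subplate markers, which was chosen with earlier results of these data known. The count of its markers is therefore a description and not a test of what the cluster is. Of the 8 claustrum, endopiriform and subplate genes 5 were at least 2-fold higher in it than in the other clusters, beside 2.13% of all genes, and 3 of them, Oprk1, Nr4a2 and Ntng2, were among its 10 leading genes, which also held Cntnap3, Col11a1 and Col24a1. The Tfap2d nuclei there had a median of 10 Ntng2 UMIs, with a range of 0 to 30, and of 3 Nr4a2 UMIs, and 52 of the 55 had no Abi3bp UMI. The leading genes were also compared with the 167 nuclei of this cluster without a Tfap2d UMI. Ntng2 was at 1045 against 1026 CPM, with a log2 ratio of 0.03 (-0.11 to 0.16), and was higher in 3 of 6 libraries. Nr4a2 was at 211, 266 and 396 CPM at the lowest, median and highest library against 273, 292 and 375 CPM, and was higher in 3 of 6 libraries. Cntnap3 had a log2 ratio of -0.28 (-0.53 to -0.03) and Col11a1 of 0.22 (0.04 to 0.40). Oprk1 was at 153, 167 and 338 CPM over the libraries against 89.7, 130 and 152 CPM, a log2 ratio of 0.64 (0.31 to 0.98), and was the higher in each of the 6. Tll1, at a library median of 118 against 190 CPM, was higher in the Tfap2d nuclei in 1 of 6 libraries. Ndst4, at a library median of 10.7 against 9.40 CPM, was higher in 3 of 6.

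Cluster 3 was led by Ebf3 and Ebf2, with Baiap3. Of the 9 markers listed for the medial amygdala and hypothalamus 6 were at least 2-fold higher in it, beside 2.39% of all genes, and Ebf3 was among its 10 leading genes. The same limit was passed by 4 of 17 thalamic and midbrain markers and 3 of 9 inhibitory markers. As a description, since the rule used both transporters, 47.2% of its Tfap2d nuclei carried Slc17a6 and no Slc17a7, compared with 8.92% in cluster 1 and 10.9% in cluster 2. Of the 54 such nuclei, 17 were in cluster 3, 14 in cluster 1, 6 in cluster 2 and 17 in other clusters. Genes named here were chosen after their values were seen. The helix-loop-helix factor Ebf1 was at 598 CPM against 151 CPM in the 1777 nuclei of the cluster without a Tfap2d UMI, a log2 ratio of 1.99 (1.81 to 2.17). Tcf7l2, a Wnt effector typical of thalamus and midbrain, was at 274 against 79.4 CPM, a log2 ratio of 1.79 (1.51 to 2.05). The LIM homeodomain factor Lhx9 was at 27.4 against 10.1 CPM, and Tfap2b was at 16.9 against 2.56 CPM with 8 UMIs in the Tfap2d nuclei, a log2 ratio of 2.72 (1.41 to 3.83). Abi3bp had no UMI in 31 of the 36. Ndst4 was higher in the Tfap2d nuclei of this cluster in 3 of 6 libraries and Tll1 in 1 of 6.

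**Figure D5:**
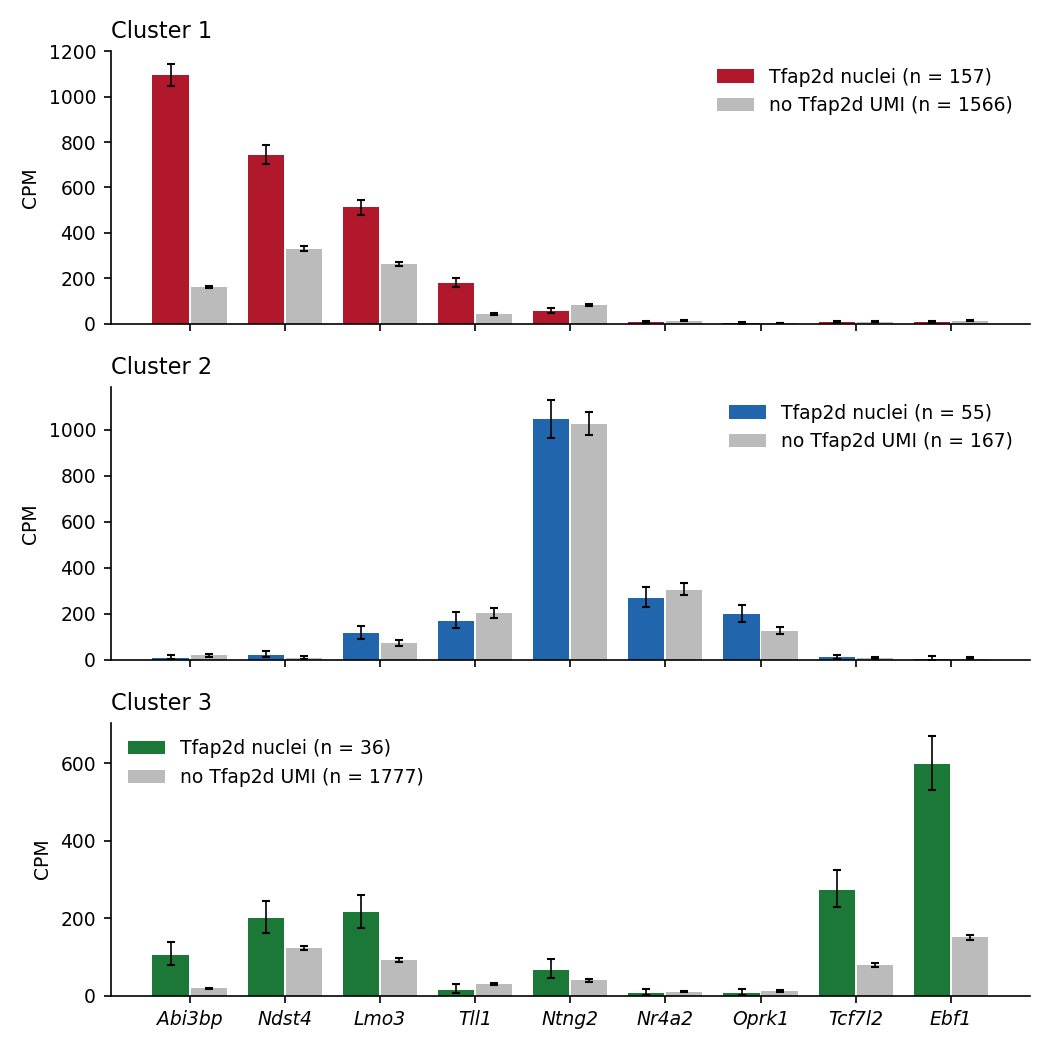
Level (CPM) of 9 genes in Tfap2d glutamatergic nuclei and in nuclei with no Tfap2d UMI of clusters 1, 2 and 3, with 95% exact Poisson intervals. Abi3bp is at 1094 against 162 CPM in cluster 1, Ntng2 at 1045 against 1026 CPM in cluster 2, and Ebf1 at 598 against 151 CPM in cluster 3.

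The nuclei can also be divided by transporter, which the rule used, over all clusters. The sets were not matched on depth, with medians of 9960 UMIs for Slc17a7 only and 8122 for Slc17a6 only. Against the 210 nuclei with Slc17a7 only, the 54 with Slc17a6 only had Tcf7l2 at 310 against 19.2 CPM. Ebf3 was at 49.9 against 1.28 CPM, from 24 and 3 UMIs, and Lhx9 at 14.6 against 1.71 CPM, from 7 and 4 UMIs. Htr2c was at 803 against 404 CPM, Ndst4 at 171 against 467 CPM and the kinase gene Camk2a, typical of forebrain excitatory neurons, at 387 against 707 CPM. Abi3bp was at 368 against 551 CPM, but 174 of its 177 UMIs in the Slc17a6-only nuclei came from the 14 of them in cluster 1, and the other 40 held 3.

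The remaining 87 nuclei were spread over 22 clusters. Cluster 4, led by Col19a1 and Lamp5 with Cux2 among its 10 leading genes, held 17, and cluster 5, in which the inhibitory markers were higher, held 12. Each cluster was classed by the marker list with the largest share of genes at least 2-fold higher in it, where that share was at least 0.5. For 10 clusters this was an astrocyte, oligodendrocyte lineage, microglial or vascular list, and they held 19 Tfap2d nuclei (5.67%) against 28.2% of the glutamatergic nuclei without Tfap2d. Clusters 6 and 8, with 7 and 6 Tfap2d nuclei, had an astrocyte and an oligodendrocyte lineage list as the largest at a lower share, and with them the count was 32 (9.55%) against 30.6%. For 3 clusters with 18 Tfap2d nuclei the list was inhibitory or striatal. One of these, cluster 12 with 4 Tfap2d nuclei, had 8 of 9 inhibitory markers 2-fold higher but also 4 of 7 astrocyte and 5 of 8 vascular markers. Its leading genes were Mbp and mitochondrial genes such as mt-Atp6, at a median of 2179 UMIs, so its class by list does not name a cell type. Whether such nuclei are doublets or carry free RNA was not tested.

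The make-up of the Tfap2d nuclei varied over the libraries. Cluster 1 took 25.0% of them in library 4 and 40.3 to 60.6% in the other libraries, and cluster 2 took 12.1 to 25.0%. Library 4, where cluster 1 had 11 and cluster 2 had 11 of 44 nuclei, was also that of the lowest Abi3bp level, at 217 CPM. The Abi3bp log2 ratio remained between 3.95 and 4.19 whichever library was left out. In cluster 1 alone, the Tfap2d nuclei of library 4 had Abi3bp at 884 CPM, within the 622 to 1314 CPM of the 6 libraries. A lower share of cluster 1 nuclei and a lower level per nucleus both enter such a sum of UMIs, and the part of each was not tested.

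Other glutamatergic nuclei, set apart by fixed markers, placed the levels in a wider range. Abi3bp was at 532 CPM over all 335 Tfap2d nuclei, compared with 27.8 CPM in 6487 upper-layer nuclei, 74.7 CPM in 2426 layer 6 nuclei and 11.4 CPM in 822 subcortical nuclei. Lmo3 was at 313, 71.7, 108 and 53.0 CPM in the same order, and Dner at 439, 146, 100 and 223 CPM. Htr2c, at 474, 177, 179 and 385 CPM, was nearest to the subcortical nuclei. These sets were not matched on depth.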

How the data were processed

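RNA was measured in nuclei of 6 mouse forebrains with the 10x single cell 3′ v2 protocol. The authors deposited 1 matrix of UMI counts per gene and nucleus, not normalized. The submitters' notes name Cell Ranger 2.1.1 and mm10, the matrix header names Cell Ranger 6.0.0, and the study's methods describe STARsolo, removal of empty droplets and doublets, and imputation, so which steps preceded this matrix is not known. No column of per-sample values was left unmapped other than by barcode number, and no file ties that number to a mouse.

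Nuclei with a mitochondrial share under 10% were kept. Members and gene lists were chosen with earlier results of these data known. Each Tfap2d nucleus was matched to 5 nuclei of its library with no Tfap2d UMI, in bins of 0.25 log2 units of depth; the number 5 was set after seeing the data. UMIs were summed, scaled to CPM and compared with exact binomial or Poisson intervals (95%). Intervals and shares cover counting error only, and no p-value was computed. Named genes were the 15 highest and 15 lowest ratios with at least 50 CPM in 1 sum and the same sign in every library, then the extremes of each list, together with the genes of the rule, the markers and Npc1. Microglia-marker nuclei had at least 5 UMIs over Csf1r, Cx3cr1 and P2ry12 and no Tfap2d UMI. Among glutamatergic nuclei without Tfap2d, upper-layer nuclei had at least 2 Cux2 UMIs, layer 6 nuclei at least 2 each of Foxp2 and Tle4, and subcortical nuclei at least 2 of Slc17a6 and none of Slc17a7. Clustering was added after seeing the data: 3000 variable genes, 30 principal components, 20 neighbours, Leiden resolution 1.0. Scripts were tested on simulated data. Sums and intervals were made with scipy 1.17.1 in Python 3.11.15 and the clustering with scanpy 1.11.5. Genes were placed by GENCODE vM21 on GRCm38, and promoters by RefSeq on GRCm38.p6.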

Additional observations from a re-analysis of the deposited data

Results flagged for a closer look

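Nuclei outside the rule with at least 2 Tfap2d UMIs were not used above, and Abi3bp was high in them too. Of 488 nuclei with at least 2 Tfap2d UMIs, 103 had no transporter UMI and at most 1 Gad UMI. Abi3bp was at 592 CPM (540 to 649) in them, against 28.2 CPM in the 33166 nuclei that missed the transporter term in the same way and had no Tfap2d UMI, a log2 ratio of 4.39 (4.25 to 4.53). The neuronal gene Rbfox3 was at 495 CPM there against 287 CPM, Ndst4 was at 589 against 47.3 CPM, and the median depth was 6731 against 3400 UMIs. In the 39 nuclei with a transporter UMI and over 1 Gad UMI, Abi3bp was at 372 CPM (333 to 415) against 26.5 CPM in 5371 nuclei without Tfap2d, at median depths of 18742 and 9192 UMIs. In the 11 nuclei with over 1 Gad UMI and no transporter UMI, it was at 251 CPM (168 to 361) against 14.5 CPM in 8846 nuclei. The sets were not matched on depth, and the part of depth, doublets and free RNA was not tested.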

How the results depend on the processing

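No paired analysis was possible because the barcode numbers carry no mouse label or replicate number, so WT and Npc1-/- could not be compared. Within-library values of Tfap2d and matched nuclei stand in the report, without a test. The share of Tfap2d nuclei, 0.442%, became 0.244% with at least 3 and 1.12% with at least 1 Tfap2d UMI, 0.340% with no Gad UMI and 0.163% with at least 3 transporter UMIs. That last limit gave 50.8% Slc17a7-only and 4.84% Slc17a6-only nuclei. With it 121 Tfap2d nuclei were compared, and 262 genes were lower (2.31% of the 11357 counted). Counts of genes at least 2-fold higher and lower were 591 and 2983 of 19990 genes (2.96% and 14.9%) without depth matching. They were 1453 and 1425 of 19916 genes (7.30% and 7.16%) without a minimum of UMIs. Leaving out nuclei with 3 or more glial or vascular UMIs kept 18 Tfap2d nuclei and gave 51 and 175 of the 2845 genes counted there (1.79% and 6.15%), 72.2% Slc17a7-only and 11.1% Slc17a6-only nuclei, 0% with both Abi3bp and Ntng2, and reversed log2 ratios for Nr4a2 (-0.59), Slc1a3 (0.73), Flt1 (2.31), Nhsl1 (0.99) and Synpr (-0.038), all with intervals that hold 0, of which Slc1a3 and Flt1, with 1 UMI each, are themselves markers of that filter. A further 3 settings were chosen after seeing the data. Leaving out clusters marked by glial, vascular, inhibitory or striatal genes kept 296 nuclei, with 271 lower genes (2.03% of those counted) and Flt1 at 0.25. A limit of 2 UMIs gave 6.27% with both Abi3bp and Ntng2. A clustering resolution of 2.0 put 32.2% in the Abi3bp cluster. The cause of these shifts was not tested. Leaving out each library in turn gave shares of 0.425 to 0.457%. It gave 133 to 154 higher genes (1.00 to 1.13% of those counted) and 439 to 610 lower genes (3.30 to 4.48%). Slc17a7-only nuclei were 61.7 to 63.9% and Slc17a6-only nuclei 13.4 to 17.0%, and 1.86 to 3.04% held both Abi3bp and Ntng2. With the clusters kept as made from all 6 libraries, 43.5 to 50.2% lay in the Abi3bp cluster and 15.1 to 17.5% in the Ntng2 cluster. Over 35 named genes and 14 alternatives, 372 of 489 ratios stayed inside the interval of the reported value. Another 111 moved outside it, and 6 with an interval off 0 reversed. Of the 489, 210 came from leaving out 1 library, which reuses most of the same UMIs. Npc1, whose interval holds 0, took either sign and was at -2.08 in the 18 nuclei. Plpp3 had no UMI in the 18 nuclei and gave no value there. With 335 nuclei, genes under about 50 UMIs over both sums were not counted.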
